A study of Homo sapiens with 32 samples.

Results

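The chaperonin containing TCP1, called CCT or TRiC, is a large barrel of paired rings that folds newly made proteins in the cytosol with the use of ATP. The mRNAs of its 8 subunits, TCP1, CCT2, CCT3, CCT4, CCT5, CCT6A, CCT7 and CCT8, were followed here as they decayed in a pair of related breast cancer lines. All 8 subunits were found among the 10829 genes with a decay rate in both lines. They were chosen by name from the list of subunits of the complex, and the rule for membership uses no measured value, although the complex was taken up with earlier results of these data known. The subunits had 14 RefSeq transcript entries in both rate tables, out of 12966, and 17 in either table.

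Each ring of the barrel holds every subunit in a fixed order, so the assembled complex needs its subunits in equal amounts. Actin and tubulin are its best known substrates, and proteins with WD repeats, such as G protein beta subunits and the cell cycle activators CDC20 and FZR1, are folded there too. Prefoldin, a small jellyfish-shaped chaperone, hands unfolded actin and tubulin to it, and phosducin-like proteins assist it. The question asked of the data was whether the mRNAs of subunits of 1 complex share a decay rate, and whether those rates differ between the lines.

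MDA-MB-231 is an established line of human breast cancer cells, and MDA-LM2 was derived from it by selection for metastasis to the lung. Cells of both lines were fed 4-thiouridine (4sU), a uridine analogue that marks new RNA, for 2 h and were then kept in fresh medium with an excess of plain uridine. Labelled RNA was precipitated and sequenced at 0, 2, 4 and 7 h, with 4 libraries for each line and time, 32 in all. Each transcript has 4 decay rates in a line, 1 for every replicate series, and the series are named 1_1, 1_2, 2_1 and 2_2. A higher rate means faster loss of labelled RNA. A rate near 0 means that no loss was recorded over the time course, and a rate below 0 that a rise was recorded. Neither is read as full stability, because the scaling is not known. No source states that the series were separate cultures, and every p-value measures the spread among the 8 series alone, which may be technical. Rates are in the deposited unit, with log base and scaling not given in the sources used here, and read depth is unknown.

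Series that share their second number resembled each other across transcripts. The Spearman correlation over all 12966 transcripts, which are not independent replicates, was 0.812 and 0.778 for such pairs of MDA-LM2 series and 0.763 and 0.622 for those of MDA-MB-231. It was 0.549 to 0.563 and 0.213 to 0.326 for the other pairs of the same line. Adjusted p-values are therefore given in 2 ways where a subunit was called on rates as deposited, with the series as independent, and with an estimated correlation between series of the same line and second number. Rates beyond 1 either side of 0 made up 3.20% to 5.38% of values in MDA-LM2 series and 17.4% to 20.1% in MDA-MB-231 series. Of the markers looked for, 4 of 5 genes typical of MDA-MB-231 had a rate, against 0 of 4 luminal breast genes, 0 of 3 fibroblast and endothelial genes and 1 of 3 immune genes. A rate is no measure of level, so this checks only that the transcripts were detected.

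Several subunits have more than 1 RefSeq entry, and the entries differ by whole exons. The exons below are shown because the rates turned out to depend on which transcript is read. Each line gives the stretch of the principal transcript that a shorter RefSeq form of the same gene leaves out, 5′ to 3′ in DNA letters as GENCODE release 29 transcripts give them. Capitals mark the exons left out and lower case the 15 bases on either side, which the shorter form joins directly.
TCP1: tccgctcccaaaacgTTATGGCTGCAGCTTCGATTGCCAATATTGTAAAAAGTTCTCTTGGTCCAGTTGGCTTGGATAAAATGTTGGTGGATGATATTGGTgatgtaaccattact
CCT3: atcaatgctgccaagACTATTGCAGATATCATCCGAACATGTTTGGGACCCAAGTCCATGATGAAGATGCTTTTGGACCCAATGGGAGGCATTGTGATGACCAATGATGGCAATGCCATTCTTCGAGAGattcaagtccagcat
CCT4: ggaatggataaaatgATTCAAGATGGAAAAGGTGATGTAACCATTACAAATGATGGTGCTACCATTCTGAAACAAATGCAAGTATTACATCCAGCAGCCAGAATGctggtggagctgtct
CCT6A: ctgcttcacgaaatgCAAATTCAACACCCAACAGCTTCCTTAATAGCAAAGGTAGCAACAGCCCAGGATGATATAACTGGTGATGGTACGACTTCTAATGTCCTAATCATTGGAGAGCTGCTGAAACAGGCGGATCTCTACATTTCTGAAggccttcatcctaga

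These exons lie near the start of the coding sequence, which encodes part of the equatorial, ATP-binding domain of the subunits. In TCP1 exon 2 (86 bases, coding bases 65 to 150) is left out, and its length is not a multiple of 3. CCT3 loses exons 3 and 4 (114 bases, coding bases 94 to 207), CCT4 loses exon 3 (90 bases, coding bases 181 to 270) and CCT6A loses exon 3 (135 bases, coding bases 202 to 336), each of which keeps the reading frame. The subunits are related in sequence, and the longest run that any 2 of the 4 stretches share is the 17 bases ggtgatgtaaccattac of TCP1 and CCT4, which occurred in 0 of 6715 principal transcripts of other genes.

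Rates are given first for the principal transcript of each subunit, as the APPRIS annotation in GENCODE names it. This choice of transcript was added after the values had been seen, but it uses annotation alone. The gene value planned as the main measure, the median over a gene's RefSeq entries, follows after it.

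In all 8 subunits the principal mRNA had lower decay rates in MDA-LM2 than in MDA-MB-231, with every MDA-LM2 series below every MDA-MB-231 series. The mean was lower in MDA-LM2 in 66.2% of all transcripts and in 67.1% of the 6794 principal transcripts of other genes. Such a complete separation in this direction was found in 16.6% of all transcripts, and in 18.3% of those principal transcripts. A fit across all transcripts with limma called 4 of the 8 slower in MDA-LM2 at a Benjamini-Hochberg adjusted p of 0.05 (TCP1, CCT5, CCT7 and CCT8), where it called 6.04% of all transcripts slower (6.89% of the principal transcripts of other genes) and 1.90% faster. With correlated series it called 0 of the 8 (2.97% of all transcripts slower and 0.285% faster). In that fit 7 of the 8 had an unadjusted p under 0.05, as did 1955 of 12966 transcripts in either direction. Leaving out any 1 MDA-LM2 series also left 0 called, where 457 to 520 of 12966 transcripts were called slower. Leaving out the third MDA-MB-231 series (2_1) left 1, where 685 transcripts were called slower. The median difference over the 8 principal transcripts was -0.0655, against -0.0538 over all transcripts and -0.0485 over the principal transcripts of other genes.

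**Figure D1:**
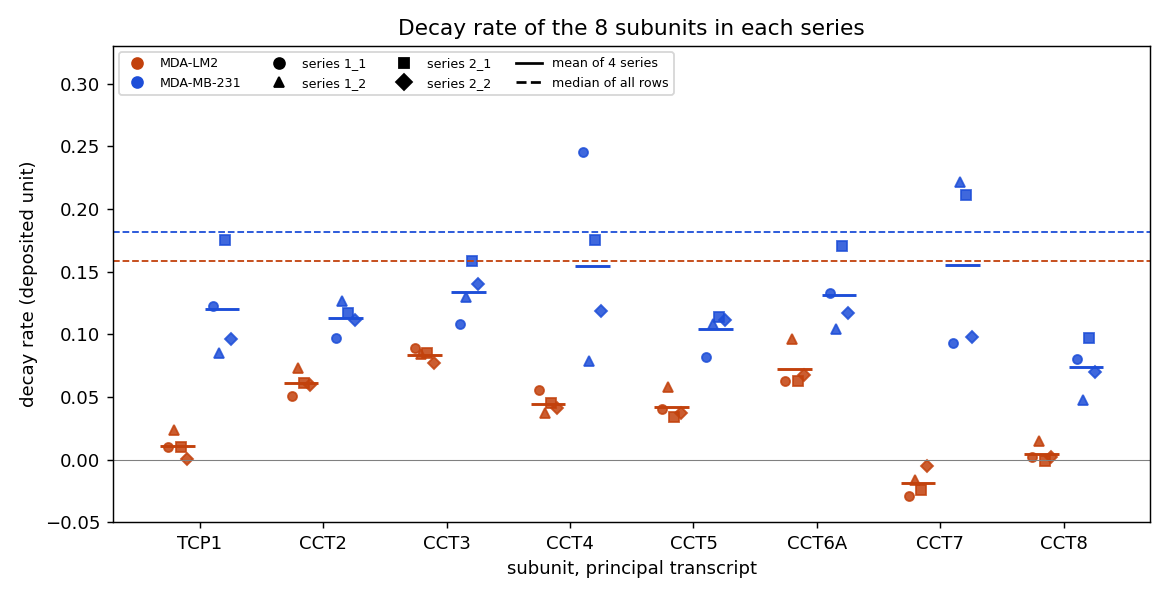
Decay rate (deposited unit) of the principal transcript of each subunit. Each point is 1 series (shape) of MDA-LM2 (orange) or MDA-MB-231 (blue), short lines are means of 4 series, and dashed lines are the mean over series of the median of all transcripts (0.159 and 0.182). All orange points of a subunit lie below all its blue points, and CCT7 lies lowest in MDA-LM2.

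The account goes round the ring, from TCP1, the alpha subunit that gave the complex its name, through CCT4, CCT2, CCT5, CCT7, CCT8 and CCT6A to CCT3. TCP1 had rates of 0.0104, 0.0237, 0.00990 and 9.11e-05 in MDA-LM2 series 1_1, 1_2, 2_1 and 2_2, and of 0.122, 0.0850, 0.176 and 0.0961 in the same-named MDA-MB-231 series. All MDA-LM2 series were close to 0, and the lowest MDA-MB-231 series stood 0.0613 above the highest of them. The difference was -0.109 (SE 0.0221, limma adjusted p = 0.0299, or adjusted p = 0.117 under an estimated correlation).

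CCT4, the delta subunit, had rates of 0.0554, 0.0370, 0.0450 and 0.0408 in MDA-LM2 and of 0.245, 0.0783, 0.175 and 0.119 in MDA-MB-231, series in the same order. The MDA-LM2 series lay close together, while those of MDA-MB-231 were widely spread, with both series of second number 1 above both of second number 2. The means were 0.0445 ± 0.00795 and 0.154 ± 0.0725 (SD, n = 4 series each), and the difference of -0.110 (SE 0.0357) was not called (limma adjusted p = 0.111). CCT2, the beta subunit, had rates of 0.0508, 0.0728, 0.0609 and 0.0597 in MDA-LM2 and of 0.0972, 0.126, 0.117 and 0.111 in MDA-MB-231. Its series were the most alike within MDA-MB-231 (0.113 ± 0.0121, SD, n = 4), with series 1_2 highest in both lines. Its difference of -0.0518 (SE 0.0133) missed the threshold with limma (adjusted p = 0.0642).

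CCT5, the epsilon subunit, had rates of 0.0404, 0.0578, 0.0337 and 0.0368 in MDA-LM2 and of 0.0819, 0.108, 0.114 and 0.112 in MDA-MB-231. Apart from series 1_1, its MDA-MB-231 rates were nearly equal. The transcript was slower in MDA-LM2 by a difference of -0.0617 (SE 0.0139, limma adjusted p = 0.0425, or adjusted p = 0.194 given an estimated correlation).

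CCT7, the eta subunit, had rates below 0 in every MDA-LM2 series, at -0.0293, -0.0160, -0.0243 and -0.00495. In MDA-MB-231 they were 0.0926, 0.221, 0.211 and 0.0975. The MDA-MB-231 series fell into a high and a low pair, 1_2 with 2_1 and 1_1 with 2_2, which do not share a second number. Its difference was the largest of the 8 principal transcripts, at -0.174 (SE 0.0346, limma adjusted p = 0.0274, or adjusted p = 0.202 given an estimated correlation). CCT8, the theta subunit, had rates of 0.00194, 0.0148, -0.000998 and 0.00226 in MDA-LM2 and of 0.0802, 0.0478, 0.0967 and 0.0702 in MDA-MB-231. It was near 0 in MDA-LM2 and was the lowest subunit in all 4 MDA-MB-231 series. Its difference was -0.0692 (SE 0.0144, limma adjusted p = 0.0325, or adjusted p = 0.127 given an estimated correlation).

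CCT6A, the zeta subunit, had rates of 0.0624, 0.0964, 0.0628 and 0.0678 in MDA-LM2 and of 0.133, 0.104, 0.170 and 0.117 in MDA-MB-231. The lines came closest here, with a gap of 0.00754 between the highest MDA-LM2 and the lowest MDA-MB-231 series, which were both series 1_2. Its difference of -0.0587 (SE 0.0192) was not called (limma adjusted p = 0.112). CCT3, the gamma subunit, had rates of 0.0888, 0.0840, 0.0851 and 0.0767 in MDA-LM2 and of 0.108, 0.130, 0.158 and 0.140 in MDA-MB-231. It was the highest subunit in 3 of 4 MDA-LM2 series, with the smallest spread of any subunit there (0.0836 ± 0.00506, SD, n = 4), and its difference of -0.0502 (SE 0.0155) was not called (limma adjusted p = 0.102).

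The lines also differed in the median of all transcripts, by a shift that was not tested here. The mean of the series medians was 0.159 ± 0.0115 in MDA-LM2 against 0.182 ± 0.0156 in MDA-MB-231 (SD, n = 4 series each), a shift of -0.0231. With each series centred on its own median, all 8 means remained lower in MDA-LM2 (59.2% of all transcripts), and 7 of 8 kept the separation of all series (12.9% of all transcripts), the exception being CCT3. Centred limma calls were 2 of 8, TCP1 at -0.0856 (adjusted p = 0.0245) and CCT7 at -0.151 (adjusted p = 0.0398), where 4.80% of all transcripts were called slower and 3.41% faster. CCT8 missed the threshold (-0.0461, adjusted p = 0.05004). The centred fit took the series as independent and was not run with correlated series. With correlated series, neither TCP1 nor CCT7 was called on rates as deposited. The median centred difference of the 8 was -0.0424, against -0.0307 over all transcripts.

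**Figure D2:**
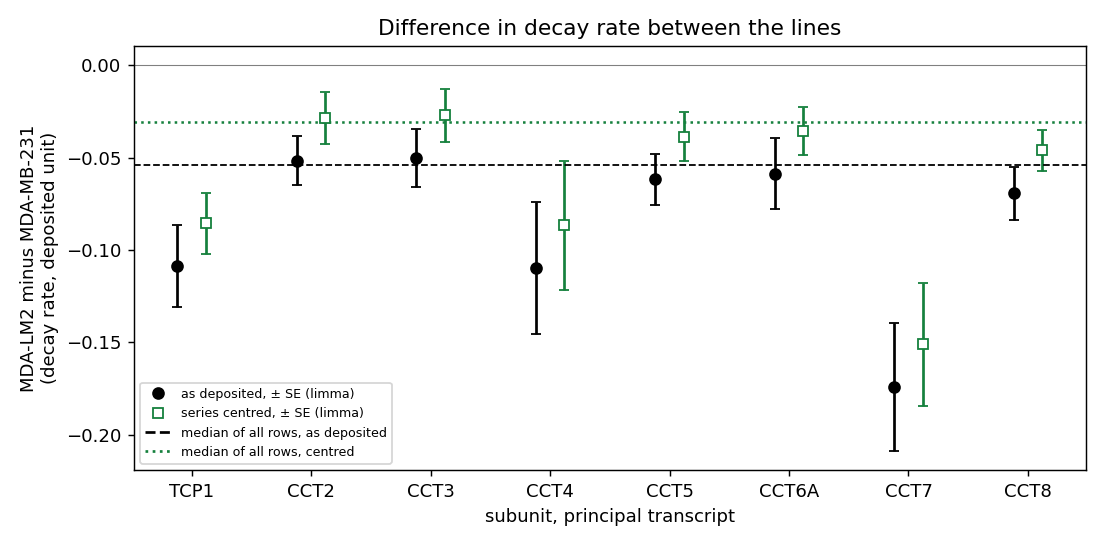
Difference in decay rate (deposited unit), MDA-LM2 minus MDA-MB-231, for each principal transcript, with limma standard errors as bars. Filled circles are rates as deposited and open squares are rates after centring each series, and the dashed and dotted lines are the medians over all transcripts (-0.0538 and -0.0307). CCT7, CCT4 and TCP1 lie farthest below the lines, and CCT2 and CCT3 lie at them.

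The authors' deposited table gives a score per transcript, labelled a t-score, that is positive where the MDA-LM2 rate was lower and nears 1 as the evidence grows. In the authors' deposited table the 8 principal transcripts scored from 0.945 (CCT4) to 0.999 (CCT2 and CCT5). Scores of all transcripts were not looked at, so how unusual these are is not known. The order differs from that of the sizes: CCT7, with the largest difference, scored 0.986 in the authors' deposited table.

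Beside all transcripts, with further and noncoding entries included, each subunit lay below the middle by its median percentile in both lines. In MDA-MB-231, series 1_1 of CCT4 and series 1_2 and 2_1 of CCT7 lay above it. The subunits were not ranked among principal transcripts alone. Ranked among all transcripts of the same series, where a low percentile is a low rate, the principal transcripts had median percentiles over the MDA-LM2 series of 6.95 for CCT7, 10.2 for CCT8, 11.2 for TCP1, 17.2 for CCT5, 18.2 for CCT4, 22.1 for CCT2, 23.9 for CCT6A and 28.2 for CCT3. In MDA-MB-231 the order was different, from CCT8 at 21.3 through CCT5 at 28.7, CCT2 at 30.2, TCP1 at 32.3, CCT6A at 36.1, CCT4 at 38.4 and CCT3 at 39.1 to CCT7 at 39.7. Neighbours in these orders mostly overlapped in their range over series, and CCT4 (27.0 to 63.3) and CCT7 (27.5 to 60.7) overlapped every other subunit but CCT8 (20.2 to 24.3) in MDA-MB-231. The median subunit lay 0.116 ± 0.0104 below the median of all transcripts in MDA-LM2, written as a difference of -0.116, and at -0.0609 ± 0.0147 in MDA-MB-231 (SD, n = 4 series each).

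By principal transcript, the spread between subunits was small beside the spread of all transcripts. The SD over the 8 principal transcripts was 0.0364 ± 0.00273 in MDA-LM2 against 0.0412 ± 0.0153 in MDA-MB-231 (SD, n = 4 series each). From the lowest to the highest subunit the rates spanned 0.0817 to 0.118 in MDA-LM2 series and 0.0695 to 0.173 in MDA-MB-231 series. The interquartile range of all transcripts was 0.183 to 0.197 and 0.272 to 0.288, so that the whole complex spanned 0.417 to 0.644 and 0.256 to 0.602 of it. All transcripts include further entries of genes, and the spread of principal transcripts of other genes alone was not computed. By gene value the spread was not small in MDA-MB-231. There the subunits spanned 3.83 to 18.5 times the interquartile range of all genes, against 0.409 to 8.32 times in MDA-LM2 series.

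Some subunits differed from others in rate within the same series. Each of the 28 pairs of principal transcripts was compared within series by an exact sign-flip permutation test over the 8 series (two-sided, smallest possible p 0.00781), with Benjamini-Hochberg adjustment over the pairs, and 11 pairs were called. CCT8 was in 6 of them: it lay below CCT3 by 0.0696, CCT6A by 0.0626, CCT4 by 0.0603, CCT2 by 0.0478 and CCT5 by 0.0340 in 8 of 8 series each (exact permutation p = 0.00781, adjusted p = 0.0312), and below TCP1 by 0.0263 in 7 of 8 (exact permutation p = 0.0156, adjusted p = 0.0398). CCT5 was in 4 pairs, below CCT3 by 0.0357 in 8 of 8 series, while CCT2 exceeded it by 0.0139 in 7 of 8 and CCT6A exceeded it in 7 of 8, for a CCT5 minus CCT6A difference of -0.0287. The other 2 pairs called were CCT2 minus CCT3, at -0.0218 and below 0 in 8 of 8, and TCP1 minus CCT6A, at -0.0363 and below 0 in 7 of 8. CCT7 was in 0 pairs called, and its place among the subunits differed between the lines. The test treats series as exchangeable although some are correlated. With 1 series left out only 7 remain and the smallest p is 0.0156, and then 0 pairs were called, except without MDA-MB-231 series 1_2, when 9 were.

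**Figure D3:**
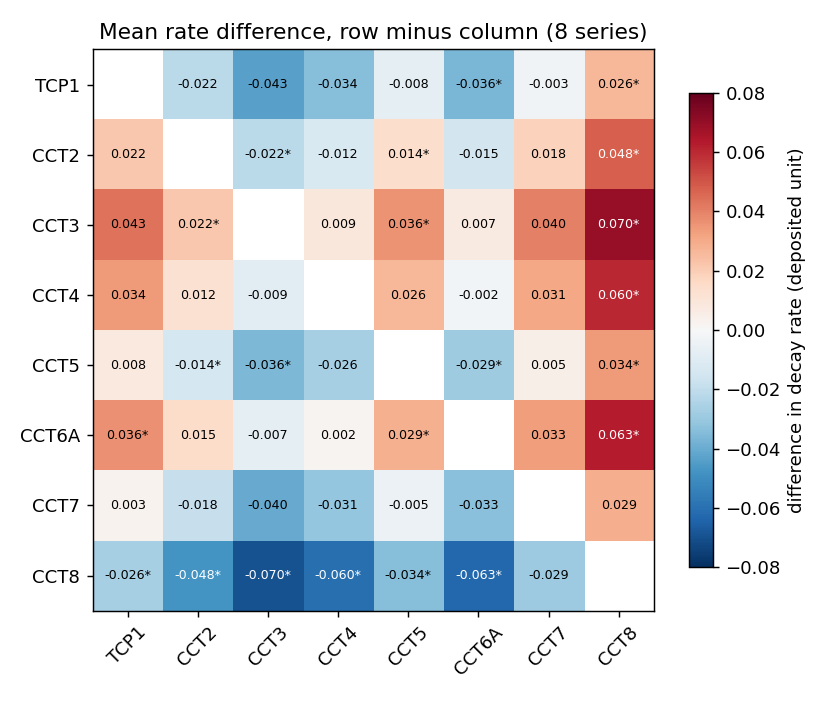
Mean difference in decay rate (deposited unit) between the principal transcripts of 2 subunits, row minus column, over 8 series. Red marks a higher rate in the row subunit, and an asterisk marks the 11 pairs called at an adjusted p of 0.05. The CCT8 row is blue throughout, and 6 of its 7 cells carry an asterisk.

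By principal transcript, the place of CCT7 among the subunits differed between the lines, although no change of a pair passed the test. CCT7 was the lowest subunit in all 4 MDA-LM2 series and stood below CCT8 there by a mean difference of -0.0231 ± 0.0112, but stood above CCT8 in all 4 MDA-MB-231 series, at 0.0819 ± 0.0758 (SD, n = 4 each). The change of that difference between the lines, -0.105, had the smallest p that 4 against 4 series allow (exact permutation p = 0.0286, adjusted p = 0.0889), and was not called. Of the 28 pairs, 0 changed between the lines at an adjusted p of 0.05, and 9 reached that smallest p unadjusted, 5 of them with CCT7 and 4 with TCP1. Adjusted over 28 pairs, the smallest p cannot pass when few pairs reach it, and 9 were too few. The test therefore cannot decide whether few pairs changed. TCP1 less CCT5, for example, was -0.0312 ± 0.00563 over the MDA-LM2 series and 0.0158 ± 0.0416 over those of MDA-MB-231 (exact permutation p = 0.0286, adjusted p = 0.0889).

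The second number of the series separated the rates of some subunits, as it did those of many other transcripts. Nothing particular to the subunits is read from the counts. In MDA-MB-231, both series of number 1 lay above both of number 2 in TCP1, CCT4, CCT6A and CCT8 (4 of 8, against 34.1% of all transcripts), and the reverse held for 0 of 8 (24.9%). In MDA-LM2, series of number 1 lay above in CCT3 and CCT4 (22.3% of all transcripts) and below in CCT6A, CCT7 and CCT8 (37.6%). The labels do not say what the number stands for, and its part in the differences was not tested beyond the fit with correlated series.

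The other RefSeq entries of the subunits behaved less evenly. Of the 6 further entries in both tables, 3 had a rate beyond 1 in some series, against 0 of the 8 principal ones. For comparison, 26.3% of principal transcripts of other genes and 43.4% of the remaining entries had one. The shorter TCP1 form without exon 2 had rates of 0.125, 0.0952, 0.1001 and 0.127 in MDA-LM2 and of 0.0991, 0.187, 0.0423 and 0.177 in MDA-MB-231. The lines overlapped fully in this form (limma adjusted p = 0.792), unlike in the principal transcript.

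The CCT3 form without exons 3 and 4 ranged from -0.0992 to 3.06 in MDA-LM2, at -0.0992, 0.186, 0.251 and 3.06, and had rates of 9.62, 2.09, 9.53 and 1.90 in MDA-MB-231. Rates above 9 recurred in other genes, among them TBCC and TUBB2A below. The CCT4 form without exon 3 had rates of 0.00462, 0.104, -0.0315 and 0.0665 in MDA-LM2 and of -0.444, 1.27, 0.0320 and 2.04 in MDA-MB-231. In the CCT6A form without exon 3 they were -0.0251, 0.118, 0.0443 and 0.229 in MDA-LM2 against 2.47, 0.144, 2.68 and 0.290 in MDA-MB-231. The lines overlapped in all 3 of these forms, and limma called no difference (adjusted p = 0.234, 0.423 and 0.257).

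CCT7 had 2 further entries in both tables. The coding entry NM_001166285, which carries an extra exon, had rates of 0.0310, 0.0320, -0.00404 and 0.0413 in MDA-LM2 and of 0.0119, 0.0172, -0.00499 and 0.245 in MDA-MB-231, a difference that was not called (limma adjusted p = 0.627). The noncoding entry NR_029403 went the other way from the principal transcript, at 0.0499, 0.0339, 0.0405 and -0.0239 in MDA-LM2 against -0.0526, -0.332, -0.159 and -0.190 in MDA-MB-231. All its MDA-LM2 series lay above all its MDA-MB-231 series, as in 5.83% of all transcripts, with a difference of 0.208 (SE 0.0562) that was not called (limma adjusted p = 0.0747). The authors' deposited table gives it -0.968.

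Another 3 entries were in 1 table only and entered no comparison. In MDA-LM2 alone, the CCT7 form NM_001166284, which lacks exons 2 and 3, had rates of 0.214, 0.0206, 2.33 and 0.165, and the noncoding CCT3 entry NR_036564 had 0.396, 2.79, 2.76 and 2.83. In MDA-MB-231 alone, the noncoding CCT3 entry NR_036565 had rates of 0.163, 9.56, -2.43 and 7.24. Forms of 1 gene share most of their bases, so the rate of a minor form depends on how reads were divided between forms, and how that was done is not given in the sources used here.

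**Figure D4:**
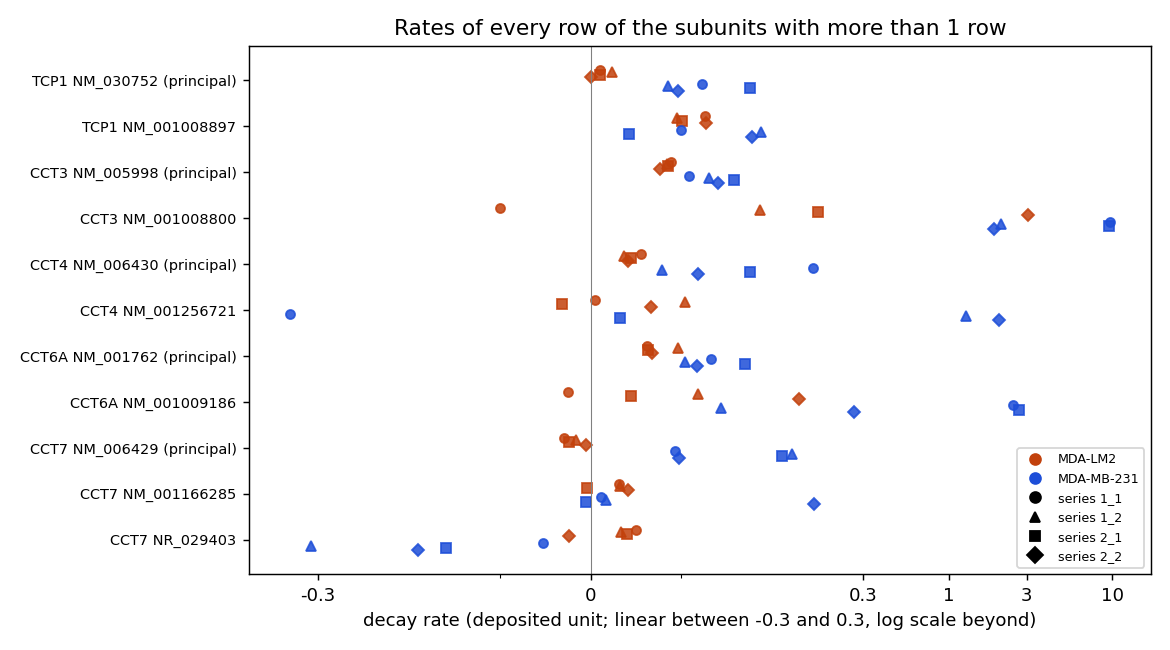
Decay rate (deposited unit) of every RefSeq entry in both tables for the subunits with more than 1, by line (colour) and series (shape). The axis is linear between -0.3 and 0.3 and logarithmic beyond. Principal entries stay within the linear range, whereas the further entries of CCT3, CCT4 and CCT6A reach beyond 1 in MDA-MB-231.

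The gene value, the median over entries, carries this through to 5 subunits and leaves CCT2, CCT5 and CCT8, which have 1 entry each, as they are. In the limma fit over all genes, 3 of the 8 subunits were slower in MDA-LM2: CCT8 (adjusted p = 0.0282), TCP1 (0.0348) and CCT5 (0.0367). With correlated series 0 of 8 were called by gene value, and these 3 had an adjusted p of 0.110, 0.120 and 0.170. All genes were called slower in 6.71% and faster in 2.00% of cases. CCT2 was next (adjusted p = 0.0549). By gene value the difference of TCP1 shrank to -0.0616 and that of CCT7 to -0.0169 (limma adjusted p = 0.658). Those of CCT3 (-2.49), CCT4 (-0.399) and CCT6A (-0.682) grew, and none of the 3 was called (limma adjusted p = 0.205, 0.320 and 0.236). All 8 means were lower in MDA-LM2, but that of CCT7 changed sign after centring (0.00783) and without the fourth MDA-MB-231 series (0.00544). In the pairwise test 16 of 28 pairs of gene values were called, 8 of them also by principal transcript, and 0 changed between the lines. CCT7 was in 5 of the 16 pairs called by gene value, and CCT3 was in 6, the most of any subunit. The gene value of CCT3 draws on the form without exons 3 and 4, with rates up to 9.62 in MDA-MB-231.

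The principal transcripts were alike in coding length, from 1593 bases in CCT6A to 1668 in TCP1, as related proteins of 1 fold. Their 3′ UTRs were not: they measured 143 bases in CCT7, 151 in CCT8, 231 in CCT3, 245 in CCT2, 547 in TCP1, 603 in CCT4, 904 in CCT6A and 1629 in CCT5. The median of 396 bases compares with 1148 over 6720 principal transcripts of other genes. CCT7 and CCT8, the slowest subunits in MDA-LM2 and MDA-MB-231 respectively, had the shortest 3′ UTRs, while CCT3, among the fastest in both lines, had the next shortest. In MDA-MB-231, however, CCT7 had the highest mean rate of the 8, at 0.156. CCT5, with the longest 3′ UTR, had the lowest mean there after CCT8, at 0.104. A link between 3′ UTR and rate was not tested. The pentamer ATTTA, the core of AU-rich elements, which are known to shorten the life of many mRNAs, was searched on the sense strand with overlaps counted. It occurred 4 times in the 3′ UTR of CCT5, 3 times in TCP1 and in CCT2, 2 times in CCT4 and in CCT6A, 1 time in CCT3 and in CCT7, and 0 times in CCT8. At least 1 match was found in 7 of 8 subunits, against 64.0% of 3606 other 3′ UTRs between 143 and 1629 bases long. These are matches of letters only, from an annotation later than the one the rates were made on. GC content was 51.2% in CCT3 and 51.8% in CCT7 and lay between 43.1% and 44.7% in the other six, with a median of 47.2% over other genes.

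Genes that work with the complex or depend on it were read from the gene-level fit, by lists of known partners. Prefoldin hands substrates to CCT, and all 6 of its subunits had a rate, with 1 slower and 1 faster in MDA-LM2, where 6.71% of all genes were slower and 2.00% faster. PFDN4 had rates of 0.0502, 0.0929, 0.0699 and 0.0895 in MDA-LM2 and of 0.205, 0.195, 0.235 and 0.179 in MDA-MB-231. It was slower in MDA-LM2 with independent series (limma adjusted p = 0.00775) and with correlated ones (0.0318). PFDN2 went the opposite way, from 0.0533 ± 0.0178 in MDA-LM2 to -0.00728 ± 0.0155 in the parental line (SD, n = 4 each, limma adjusted p = 0.0486, or adjusted p = 0.173 given an estimated correlation). By the mean over the 8 series of both lines, by which the ends of every list below are also named, PFDN5 was lowest of the 6, at -0.0664 ± 0.0524 and 0.0435 ± 0.0494, and PFDN1 the highest, at 0.153 ± 0.0113 and 0.138 ± 0.0426. A lower mean in MDA-LM2 was found in 3 of the 6, against 67.0% of all genes, and the median difference was -0.0198, against -0.0539 over all genes and -0.0655 over the CCT subunits.

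Of the phosducin-like proteins and other regulators, PDCL, PDCL3 and TXNDC9 had a rate and CCT6B, a testis form of the zeta subunit, had none. The limma fit called 0 of the 3, either way (6.71% of all genes slower and 2.00% faster). Over both lines PDCL3 had the lowest mean rate, 0.102 ± 0.0284 and 0.0723 ± 0.0675, and PDCL the highest, 0.317 ± 0.0701 and 0.239 ± 0.107 (SD, n = 4 each, MDA-LM2 first).

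Among the substrates, all 13 actin and tubulin genes had a rate, and 5 had a lower mean in MDA-LM2 (67.0% of all genes). TUBA4A, an alpha tubulin, was faster in MDA-LM2, at 0.237 ± 0.0494 against 0.116 ± 0.0130 (SD, n = 4 each, limma adjusted p = 0.0393, or adjusted p = 0.115 given an estimated correlation). It was 1 of 13 called faster (2.00% of all genes), and 0 were slower (6.71%). The ends of the list were TUBA1B, at 0.0373 ± 0.0165 and 0.0665 ± 0.0331, and TUBB2A, at 0.270 ± 0.132 in MDA-LM2 against 0.0519, 9.67, 0.0734 and 0.507 in the MDA-MB-231 series. All 10 WD-repeat substrates had a rate, and 7 had a lower mean in MDA-LM2 (67.0% of all genes). Called slower was 1 of the 10 (6.71% of all genes). This was RACK1, a ribosome-bound scaffold, at -0.0278 ± 0.00399 in MDA-LM2 against 0.0288 ± 0.00501 (limma adjusted p = 0.0147, or adjusted p = 0.0735 given an estimated correlation). The remaining WD-repeat genes ran from WDR5, a subunit of histone methyltransferase complexes, at -0.0709 ± 0.450 and -0.696 ± 0.795, to FZR1, at 0.871 ± 1.24 and 0.986 ± 2.55.

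Tubulin cofactors take tubulin from CCT and join alpha and beta tubulin. Of 6 listed, ARL2 had no rate, and of the other 5 TBCB was slower in MDA-LM2, at -0.0595 ± 0.0142 against 0.0924 ± 0.0668 (SD, n = 4 each, limma adjusted p = 0.0351, or adjusted p = 0.128 given an estimated correlation). It was 1 of 5 called slower (6.71% of all genes), and 4 of the 5 had a lower mean in MDA-LM2 (67.0% of all genes). TBCC had the highest mean rate, with MDA-LM2 rates of 0.356, 9.51, 0.440 and 9.48 and MDA-MB-231 rates of 9.49, 0.341, 9.55 and 9.50. Rates of that size are not read as decay of TBCC mRNA here, because they alternate with rates below 1 between series of 1 line.

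Other chaperones did not share 1 direction. Of the mitochondrial chaperonin and the chaperonin-like BBS genes, 2 of 5 were slower in MDA-LM2 (6.71% of all genes): HSPE1, the lid of the mitochondrial chaperonin, at 0.0170 ± 0.0304 against 0.0962 ± 0.0125 (limma adjusted p = 0.0428), and MKKS, at 0.144 ± 0.0186 against 0.321 ± 0.0811 (limma adjusted p = 0.0445). Neither was called given an estimated correlation (adjusted p = 0.124 and 0.117). BBS12 had the highest mean rate of these over both lines, at 0.322 ± 0.255 in MDA-LM2 and, because of 1 series at 9.31, 2.55 ± 4.51 in MDA-MB-231. Of 14 cytosolic HSP70 and HSP90 chaperones and cochaperones, ST13 (0.0325 ± 0.0221 against 0.112 ± 0.0118, limma adjusted p = 0.0248) and HSPA4 (0.0867 ± 0.0196 against 0.151 ± 0.00403, 0.0436) were slower in MDA-LM2. DNAJB1, a heat-induced partner of HSP70, was faster, at 0.454 ± 0.0467 against 0.240 ± 0.0434 (limma adjusted p = 0.0131). Given an estimated correlation none of these 3 was called (adjusted p = 0.149 for ST13, 0.137 for HSPA4 and 0.0597 for DNAJB1). CDC37, which brings kinases to HSP90, had the lowest mean rate of the 14 over both lines (-0.0282 ± 0.0161 and 0.0352 ± 0.0222), and HSPA1B, an inducible HSP70, the highest over both lines (0.342 ± 0.0312 and 0.387 ± 0.178).

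The core of the 20S proteasome, which like CCT is built of stacked rings with each subunit in a fixed place, was set beside the subunits. Its 14 mRNAs had a median rate of -0.00795 ± 0.00990 in MDA-LM2 against 0.0770 ± 0.0189 in MDA-MB-231, against 0.0489 ± 0.0151 and 0.113 ± 0.0165 for CCT gene values and 0.165 ± 0.0106 and 0.189 ± 0.0152 for all genes (SD, n = 4 series each). In the core, 13 of 14 means were lower in MDA-LM2 (67.0% of all genes), with a median difference of -0.101. It had 3 slower members (6.71% of all genes), PSMA2 (-0.0359 ± 0.0148 against 0.0888 ± 0.00877, limma adjusted p = 0.00102), PSMA1 (0.00894 ± 0.0328 against 0.138 ± 0.0259, 0.0146) and PSMA3 (-0.0235 ± 0.0146 against 0.0783 ± 0.0388, 0.0322). PSMA2 alone kept its call with correlated series (adjusted p = 0.00508), where 344 of 10829 genes were called slower. Whether the complexes differed from each other was not tested.

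The 5 genes whose 8 rates lay nearest to the median CCT subunit, by the mean absolute distance over 8 series, were SMG5, a factor of nonsense-mediated decay (0.00694), the nuclear import receptor IPO5 (0.00929), the phosphatidylserine synthase PTDSS1 (0.00952), the mitochondrial RNA-binding protein LRPPRC (0.00997) and the proteasome adaptor ECPAS (0.0101). SMG5 had rates of 0.0471 ± 0.0150 in MDA-LM2 against 0.103 ± 0.0188 in MDA-MB-231 (SD, n = 4 each). Measured alike by gene value, CCT2 lay at 0.00946 with 2 of 10821 other genes nearer, CCT5 at 0.0108 with 9 nearer and TCP1 at 0.0136 with 23 nearer. CCT8 lay at 0.0416 with 840 nearer, CCT7 at 0.0589 with 1643 nearer, and CCT4, CCT6A and CCT3 at 0.218, 0.345 and 1.64 with 6404, 7374 and 9271 nearer. The subunits help to set that median, so their distances are a description only.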

How the data were processed

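The authors deposited decay rates of 4sU-labelled RNA as a score per RefSeq transcript, 4 series per line, positive where abundance fell, per the file headers and the labels; they also deposited a differential score. TopHat, Cufflinks and hg18 are named without versions in the submitters' processing notes. Depth is unknown, so its effect on precision cannot be measured here and comes on top of the limits of few and partly correlated series. No column was left unmapped.

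For symbols, 12644 accessions were matched in a RefSeq table and 118 in GENCODE release 29, both of a later assembly than hg18, so coordinates are not printed; 204 accessions kept their own name. Entries of 1 gene were reduced to their median (10829 genes, 9137 with 1 entry). Principal transcripts are those of APPRIS in GENCODE.

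limma 3.58.1 (R 4.3.3, variance trend, two-sided, Benjamini-Hochberg over all features) compared 4 with 4 series and was tested on simulated data. Subunit pairs were compared by exact permutation tests. The alternatives were a replicate block, correlated series, centring, restriction to rates within 1 of 0, other variance models, another gene value and leaving out series. Beyond the 8 subunits, each list names its members past adjusted p 0.05, at most 6 of them, and those with its lowest and highest mean rate, and the 5 nearest genes are named. The complex, and so its members, and the lists were chosen with earlier results of these data known. Python 3.11.15 and matplotlib 3.10.9 were used besides.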

Additional observations from a re-analysis of the deposited data

Results flagged for a closer look

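A series was set apart where its gap to the nearest of the other three exceeded Dixon's limit for 4 values. Of 85 groups of 4 series looked at (subunit transcripts and named genes in each line), 12 had such a series, where 1 in 20 would be 4.25. Genes named for the lowest or highest mean rate of a list can enter through such a series. No excess is therefore read from these counts. Among the subunits, the CCT3 form without exons 3 and 4 had 1 high MDA-LM2 series (3.06), the noncoding CCT3 entry NR_036564 1 low MDA-LM2 series (0.396), the CCT7 form NM_001166284 1 high MDA-LM2 series (2.33) and the CCT7 form NM_001166285 1 high MDA-MB-231 series (0.245). The only principal transcript set apart was that of CCT6A, by MDA-LM2 series 1_2 (0.0964). Without that series CCT6A was still not called.

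Of the partner genes, PDCL3 (0.173), TUBB2A (9.67) and BBS12 (9.31) had 1 high MDA-MB-231 series, TBCC had 1 low MDA-MB-231 series (0.341), FZR1 had 1 high MDA-LM2 series (2.73), and WDR5 (-0.744) and MKKS (0.117) had 1 low MDA-LM2 series. These values are given without an explanation.

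CCT7 and CCT8 stood in opposite order in the lines, with CCT7 below CCT8 in 4 of 4 MDA-LM2 series and above it in 4 of 4 MDA-MB-231 series, for principal transcripts. The change of their difference was -0.105 (exact permutation p = 0.0286, adjusted p = 0.0889 over 28 pairs), which misses the threshold. With 9 of 28 pairs at the smallest possible p, no pair could pass it.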

How the results depend on the processing

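The count of genes called slower in MDA-LM2 was 727, and it was 250 with a replicate block, 344 with correlated series and 406 to 1008 with 1 series left out. The count called faster was 217, and it was 27, 35, and 84 to 283 in the same order, 434 with centred series (560 slower) and 118 by the unequal-variance comparison. The number of subunits called slower, 3 by gene value and 4 by principal transcript, was 0 with the replicate block, 0 with correlated series and 0 without a variance trend by gene value, 1 without a variance trend by principal transcript, 1 by gene value after centring, and 0 to 4 with 1 series left out. Transcripts with all rates within 1 of 0, fitted alone with correlated series, gave 0 calls among the subunits and 0 of 8496 in all, with 1508 at an unadjusted p under 0.05. Without series 4 of MDA-MB-231 (2_2), 0 subunits were called by gene value.

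The replicate numbers did not pair the samples: deviations of same-numbered series had Spearman correlations of -0.0114, 0.00573, -0.0130 and -0.0226, so the block only shares a number. Pairs of subunits called, 16 by gene value, ranged from 0 to 15 with 1 series left out, where fewer series raise the smallest p. The SD over subunits in MDA-MB-231 was 1.05 by gene value and 0.0412 by principal transcript. The gene difference of CCT7 reversed to 0.00783 after centring, and with 1 series left out it ranged from -0.0287 (without MDA-MB-231 replicate 3) to 0.00544 (without MDA-MB-231 replicate 4), the latter a reversal. The cause of these changes was not tested, except that centring removes a shift common to all genes. The percentile of the median subunit kept to 14.7 to 17.4 in MDA-LM2 against 28.7 to 33.9 in MDA-MB-231 under the alternatives run.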

Other observations

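Near copies of CCT6A also had rates. The pseudogene transcript CCT6P1 had 0.161 ± 0.0360 in MDA-LM2 against 0.328 ± 0.0868 in MDA-MB-231, and CCT6P3 had 0.133 ± 0.0450 and 0.0900 ± 0.0501 (SD, n = 4 series each). Every series of CCT6P1 lay above every series of the principal CCT6A transcript in the same line. How reads were divided between CCT6A and its copies is not given in the sources used here, and these rates are uncertain to that extent.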
